A study of Homo sapiens with 6 samples.

Results

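The replication-dependent histone genes encode the bulk of the H1, H2A, H2B, H3 and H4 proteins that package newly made DNA. The set described here holds every gene of the table whose symbol starts with HIST1H, HIST2H, HIST3H or HIST4H, does not end in PS and a digit, and reaches a mean of 10 normalized counts across the 6 libraries. Of 72 gene rows with such symbols 6 were set aside as PS rows and 45 fell under the mean, which left 21 of the 34114 genes in the table. These 21 were 1 of 6 H1 genes, 4 of 14 H2A genes, 10 of 21 H2B genes, 2 of 13 H3 genes and 4 of 12 H4 genes. The annotation calls HIST2H2BC and HIST2H2BD transcribed pseudogenes, although their symbols carry no PS, and both stay in the set. The genes nearest the minimum were HIST2H2BD, with a mean of 12.6, and HIST2H2BF, with 13.1, on the inside, and HIST1H2BO, with 8.22, and HIST1H2AI, with 7.59, on the outside.

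RNA was measured in 3 established acute myeloid leukemia cell lines, MOLM-14, NOMO-1 and SKM-1, at 72 h after an shRNA against NCAM1, a neural cell adhesion molecule that these lines express, or a scrambled control shRNA had been brought in. Each line gave 1 library per condition, so the 3 libraries labelled control shRNA and the 3 labelled NCAM1 shRNA differ in line within each group and no line has a replicate of its own. MOLM-14 and NOMO-1 are known to carry the MLL-AF9 fusion. NCAM1 stood at 12537 normalized counts in the SKM-1 control and 101 in its knockdown library, at 1163 and 312 in NOMO-1, and at 6004 and 1896 in MOLM-14, in the direction of the labels. Libraries held 41916991 to 47688779 counted reads. Of the myeloid markers, CD33 stood between 1764 and 3837 and SPI1 between 4791 and 9577 in all 6 libraries. The other 7 of the 9 myeloid markers varied more. From the control to the knockdown library of SKM-1 MPO, myeloperoxidase, went from 728824 to 6166, ITGAM from 1757 to 20862, LYZ from 2455 to 7205 and CSF1R from 1367 to 2069. CD14 stood at 27.4 or below and CEBPA between 19.8 and 241 over the 6 libraries, and CSF3R at 8890 or above. Of the 7 T and NK cell markers, CD3D was at 2961 or above in both NOMO-1 libraries and at 20.9 or below in the other 4. CD3E and CD3G were also highest in NOMO-1, at 143 to 168. In contrast CD2, CD8A and GNLY peaked in other lines, at 39.5 or below, and NKG7 stood between 720 and 1946 in all 6 libraries.

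Most messenger RNAs of these genes end in a short stem-loop in place of a poly(A) tail. The stem-loop is bound by SLBP, and cleavage of the transcript after it is guided by the U7 small nuclear RNP. The genes sit mostly in clusters on chromosomes 6 and 1 and are transcribed in S phase, under NPAT at the histone locus body. A few of them also give longer, polyadenylated transcripts that run past the stem-loop, in cells that differentiate or leave the cycle. The TruSeq RNA v2 kit used here selects poly(A) RNA, so the counts cover the polyadenylated part of the output and whatever tail-less RNA was carried along, and the share of each was not tested.

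The stem-loop letters were found in a GENCODE v29 transcript model of 14 of the 21 genes. They are shown because they are where the tail-less form of the messenger ends. Each line below gives 26 bases of the transcript, 5′ to 3′, with the 16 bases of the stem-loop in capitals, and the 4 genes stand for the 4 versions found.
HIST1H2AC: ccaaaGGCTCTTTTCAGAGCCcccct
HIST1H2AG: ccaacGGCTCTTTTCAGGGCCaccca
HIST1H2BC: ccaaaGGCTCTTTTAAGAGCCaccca
HIST4H4: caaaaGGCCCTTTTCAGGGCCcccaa
The HIST1H2AC version occurred in 7 genes, namely HIST1H2AC, HIST1H2BH, HIST1H2BN, HIST1H3H, HIST2H2BE, HIST2H2BF and HIST3H2A. The HIST1H2AG version was shared by 3 genes, that gene and both annotated pseudogenes. HIST1H2BC shared its version with HIST1H2BD, and HIST4H4 with HIST1H4H. In GRCh38 the stem-loop of HIST1H2AC is at chr6:26124669-26124684 on the plus strand, that of HIST1H2AG at chr6:27133515-27133530 on the plus strand, that of HIST1H2BC at chr6:26123472-26123487 on the minus strand and that of HIST4H4 at chr12:14770724-14770739 on the minus strand, each in the 3′ UTR of its model.

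The annotation gives a part of the family transcripts that run on past this site. Of the 66 rows without a PS ending, 20 had a model that went on for 100 bases or more beyond the stem-loop, and 13 of these 20 (65%) reached the mean of 10. Among 9 rows whose models with the stem-loop all stopped near it 1 reached that mean, and among 37 rows with no match 7 did (18.9%). The 1 was HIST1H2BD, which has another model of 789 bases without the stem-loop letters. Rows with no match include long models as well, of 1294 bases for HIST1H4I and 950 bases for HIST1H2BJ. These kinds therefore do not fully separate models that run on from those that stop. The median of the mean normalized count was 17.4 for the first kind, 2.24 for the second and 2.88 for the third. The model of HIST1H2AC ran 1128 bases beyond the stem-loop, that of HIST1H2AG 1761 bases and that of HIST2H2BE 1729 bases. No match says little of a gene. Of the 37 rows without one 28 had a single short model with a length in whole codons, HIST1H1C, HIST1H2BK and HIST2H2AC among them. A coding part alone would have such a length, but the models were not compared with the coding parts. HIST1H4C, at 435 bases against 312 for HIST1H4K, is 1 of the 28. The models follow transcripts that others had seen, and their lengths enter the counting, so these shares are a description only.

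The SKM-1 pair stood apart over the whole table. Among genes with 100 normalized counts or more in 1 library of the line, 28.8% differed at least 2-fold between the SKM-1 libraries, against 2.16% in MOLM-14 and 7.71% in NOMO-1. Of the histone genes past that level, 3 of 6 did so in SKM-1 (HIST1H1C and HIST3H2A lower, HIST4H4 higher), 0 of 7 in MOLM-14 and 1 of 6 in NOMO-1 (HIST1H2AC, lower). The fall of NCAM1 itself was also the deepest in SKM-1, and the part of any of these in the histone values was not tested.

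**Figure D1:**
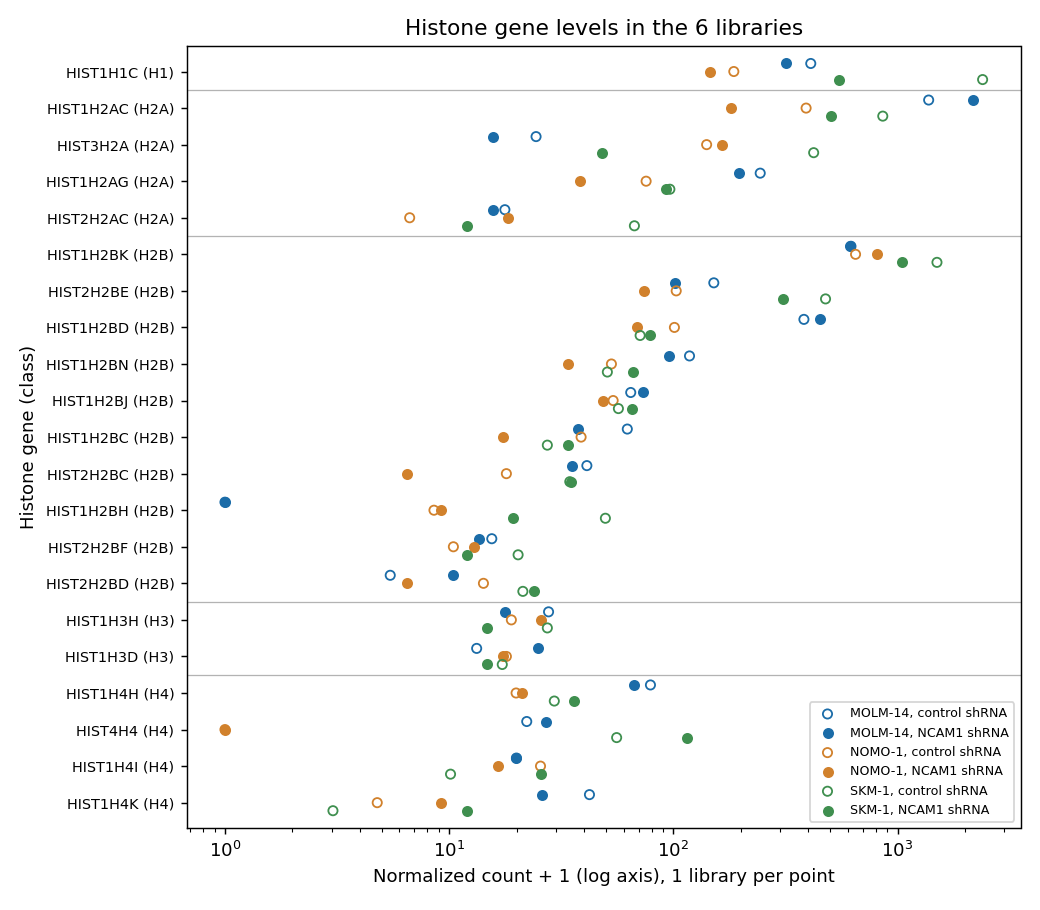
Normalized count + 1 (log axis) of the 21 histone genes, listed by class from H1 to H4, with 1 point per library, open for the control shRNA and filled for the NCAM1 shRNA, coloured by line. HIST4H4 stands at 0 in both NOMO-1 libraries and HIST1H2BH at 0 in both MOLM-14 libraries. HIST1H1C ranges from 145 to 2396.

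Summed over the 21 genes, the normalized counts came to 3719 in the MOLM-14 control, 1918 in the NOMO-1 control and 6274 in the SKM-1 control, and to 4313, 1702 and 3101 in the matching knockdown libraries. As a share of all reads, this was 41.1 reads per 1000000 in the NOMO-1 knockdown library, the lowest, and 141 in the SKM-1 control, the highest. HIST1H2AC, HIST1H2BK and HIST1H1C together held 63.8% to 75.8% of the sum in each library. The 6 genes long known for polyadenylated transcripts (HIST1H1C, HIST1H2AC, HIST1H2BC, HIST1H2BD, HIST1H2BK and HIST2H2BE) held 75.7% to 85.5%. These shares are of reads and were not corrected for length, since the gene lengths used in the counting are not given. The 45 rows under the mean added little, 2.50% to 6.23% of all histone counts in a library, and 30 of them were at 0 reads in 1 library or more. The 12 replacement and variant histones of the table, most of whose messengers carry an ordinary tail, summed to between 58178 and 98667 normalized counts.

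The classes took unequal shares. H2B held 33.0% to 63.1% of the members' counts, H2A 21.1% to 55.6% and H1 7.33% to 38.2%, while H3 held at most 2.41% and H4 at most 5.95%. H1 was HIST1H1C alone, at 38.2% in the SKM-1 control against 17.7% in the SKM-1 knockdown library and 7.33% to 11.0% in the other 4 libraries. H2A led in both MOLM-14 libraries, with 44.6% and 55.6%. H2B led in both NOMO-1 libraries, with 54.3% and 63.1%, and in the SKM-1 knockdown library, with 54.4%.

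**Figure D2:**
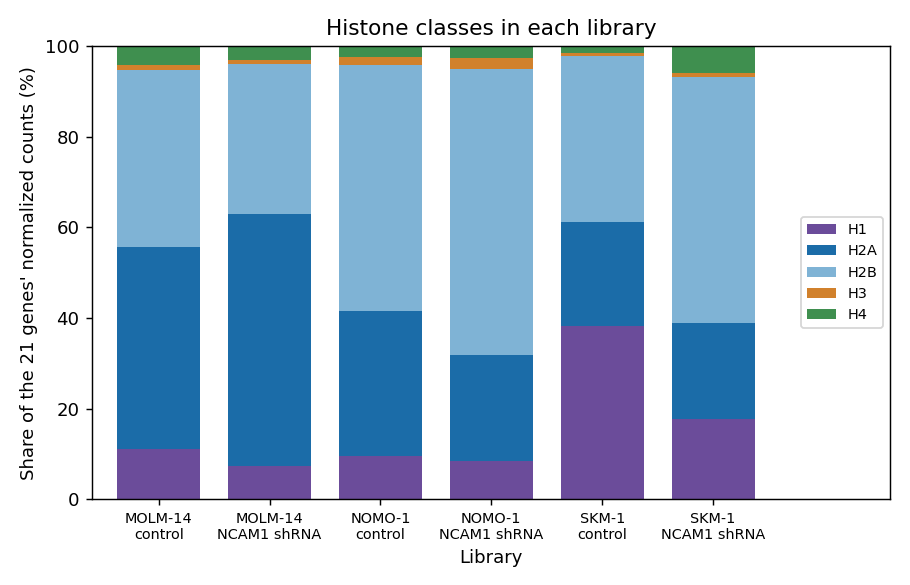
Share (%) of the 21 genes' summed normalized counts held by each histone class in each of the 6 libraries, from H1 at the foot to H4 at the top. H1 reaches 38.2% in the SKM-1 control, H2A 55.6% in the MOLM-14 knockdown library and H2B 63.1% in the NOMO-1 knockdown library.

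HIST1H1C encodes the linker histone H1.2, which binds the DNA between nucleosomes. Its normalized counts were 409, 185 and 2396 in the MOLM-14, NOMO-1 and SKM-1 controls and 316, 145 and 549.96 in the matching knockdown libraries. The knockdown library was the lower in each line, by far most in SKM-1, and the groups overlapped because the lines lie so far apart. Control over knockdown came to 4.36-fold in SKM-1 (exact conditional 95% interval on the reads, 3.98 to 4.77), 1.28-fold in NOMO-1 (1.03 to 1.58) and 1.29-fold in MOLM-14 (1.11 to 1.51). These intervals, and all those given for single lines, cover counting error only. Over the 3 lines the log2 change was -0.95 ± 1.02 (SD, n = 3), with an adjusted p of 0.779 in limma. Of the linker histones outside the clusters, whose messengers carry a poly(A) tail, H1F0 went from 25567 to 4687 and H1FX from 4121 to 1182 in SKM-1. In MOLM-14 H1F0 stood at 2899 and 2884, and in NOMO-1 at 2.83 and 5.47.

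No histone gene was called in the comparison of knockdown with control. This comparison tested each of 19575 genes with limma on log2(normalized count + 1) with the line as a block, and called a gene at an adjusted p under 0.05. It called 0 genes in all, so percent called was 0. At an unadjusted p under 0.05 limma gave 877 genes, 4.48% of those tested, and none of the 21. Quasi-likelihood tests in edgeR called 0 genes as well, with 863 at an unadjusted p under 0.05, and DESeq2 called 43, none of them a histone gene. The adjusted p-values of the 21 genes in limma lay between 0.779 and 0.995.

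Of the 21 genes 15 had a mean log2 change below 0 and 6 one above it, against 50.6% below 0 among all genes tested. The median change was -0.22 for the histone genes and -0.01 for all genes tested. By class the median was -0.95 for H1, -0.43 for H2A, -0.20 for H2B, -0.08 for H3 and 0.34 for H4. Without SKM-1 these medians were -0.36, -0.22, -0.13, 0.16 and 0.02, so that of H3 changed sign. The H4 median was 0.45 when NOMO-1, which had no reads of HIST4H4, was left out of that gene's mean. Lower values in the knockdown library of all 3 lines were found for 3 histone genes, HIST1H1C, HIST2H2BE and HIST1H2AG, and higher values in all 3 lines for none. Among all genes tested 15.9% were lower in all 3 lines and 14.6% higher, so 3 of 21 is near the background. Within single lines the median of the histone genes was -0.06 in SKM-1, -0.15 in NOMO-1 and -0.20 in MOLM-14. Bulk RNA cannot tell fewer cells of a kind, here fewer cells in S phase, from less RNA per cell.

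HIST2H2BE, an H2B gene of the chromosome 1 cluster, had the smallest spread of the 3 genes that were lower in each line. It stood at 151, 102 and 477 in the MOLM-14, NOMO-1 and SKM-1 controls and at 101, 73.0 and 308 in the knockdown libraries. The log2 change was -0.56 ± 0.08 (SD, n = 3; limma standard error 0.255, adjusted p 0.779). Control over knockdown came to 1.49-fold (1.14 to 1.95), 1.40-fold (1.04 to 1.89) and 1.55-fold (1.34 to 1.79) in the 3 lines. Each of these intervals lies above 1, which also held for HIST1H1C and for no other gene of the set. The share of all tested genes that do the same was not computed. The intervals narrow as reads increase, so this does not set these genes apart. HIST1H2AG, an H2A gene of the chromosome 6 cluster, went from 243 to 195, from 74.6 to 37.4 and from 95.5 to 91.8 (log2 change -0.45 ± 0.48, SD, n = 3; limma adjusted p 0.779). Most of its difference was in NOMO-1, and its SKM-1 libraries lay within counting error.

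**Figure D3:**
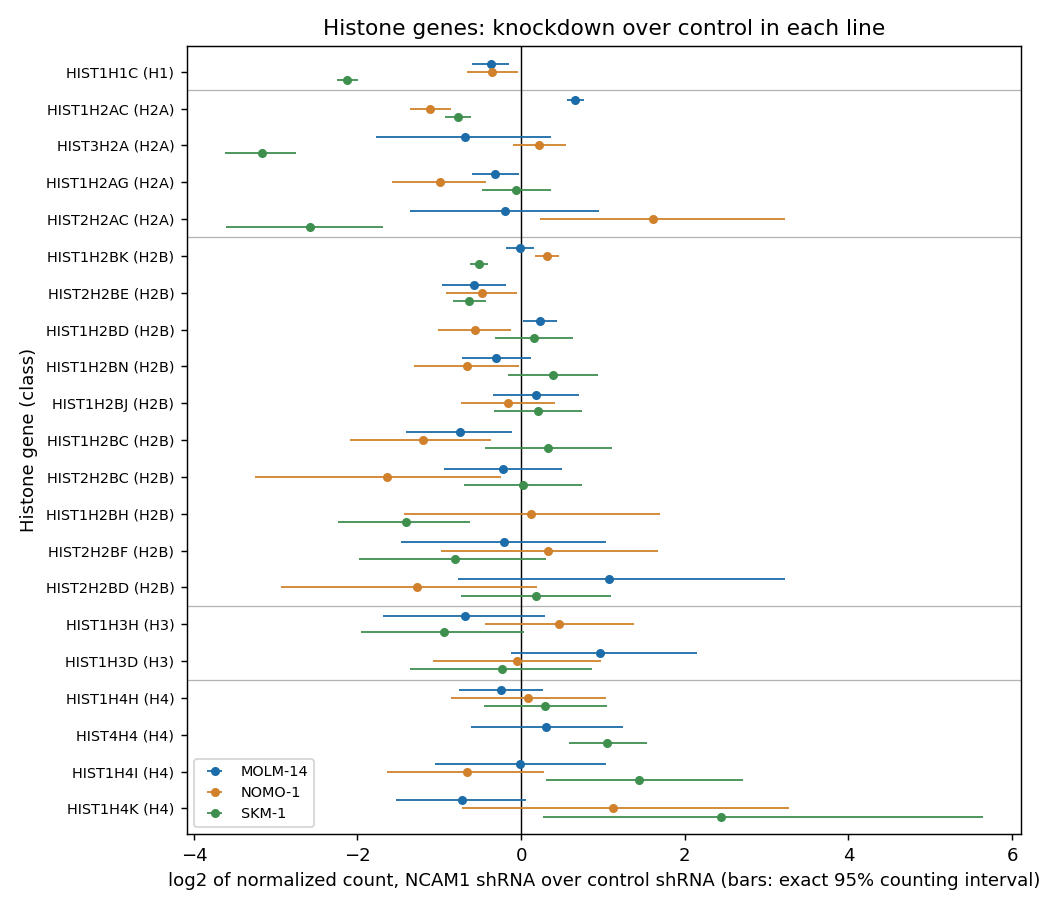
The log2 ratio of normalized counts, NCAM1 shRNA over control shRNA, of each histone gene in each line, with exact conditional 95% intervals that cover counting error only; lines with no reads of a gene have no point. HIST2H2BE and HIST1H1C lie below 0 in all 3 lines, HIST1H2AC lies above 0 in MOLM-14 and below it in the other two, and HIST3H2A lies far below 0 in SKM-1.

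Of the H2A genes HIST1H2AC and, at low counts, HIST2H2AC differed between lines in direction beyond counting error. HIST1H2AC, whose long transcript past the stem-loop is described above, stood at 1376, 390.1 and 859 in the MOLM-14, NOMO-1 and SKM-1 controls. In the knockdown libraries it stood at 2174, 181 and 504. The knockdown library was 1.58-fold higher in MOLM-14 (1.47 to 1.70), while the control was 2.16-fold higher in NOMO-1 (1.82 to 2.57) and 1.70-fold higher in SKM-1 (1.53 to 1.90). Over the lines the log2 change was -0.40 ± 0.94 (SD, n = 3; limma adjusted p 0.799).

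HIST3H2A, which lies with HIST3H2BB in the small cluster far out on chromosome 1, went from 422 to 46.8 in SKM-1, from 139.8 to 163 in NOMO-1 and from 23.4 to 14.6 in MOLM-14. In SKM-1 the control was 9.01-fold higher (6.72 to 12.3), the widest single-line difference among the histone genes with 100 normalized counts or more in a library of the line. The MOLM-14 and NOMO-1 pairs lay within counting error. HIST2H2AC moved between low counts, from 66.0 to 11.0 in SKM-1, from 5.67 to 17.3 in NOMO-1 and from 16.7 to 14.6 in MOLM-14. Its knockdown library was 3.06-fold higher in NOMO-1 (1.17 to 9.36) and its control 5.99-fold higher in SKM-1 (3.21 to 12.2).

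Among the H2B genes HIST1H2BK gave the most reads, 619, 649 and 1499 in the MOLM-14, NOMO-1 and SKM-1 controls and 612, 806 and 1051 in the knockdown libraries. The MOLM-14 pair did not differ beyond counting error, the NOMO-1 knockdown library was 1.24-fold higher (1.122 to 1.37) and the SKM-1 control 1.43-fold higher (1.32 to 1.54). HIST1H2BD stood at 381, 100.1 and 70.1 in the controls and at 449, 67.5 and 78.0 in the knockdown libraries. Its MOLM-14 knockdown library was 1.18-fold higher (1.02 to 1.36), its NOMO-1 control 1.48-fold higher (1.09 to 2.02), and its SKM-1 pair did not differ beyond counting error. HIST1H2BN stood between 32.8 and 117. HIST1H2BJ kept to 47.4 to 72.0 over all 6 libraries, with no pair beyond counting error. The remaining H2B genes (HIST1H2BC, HIST1H2BH, HIST2H2BC, HIST2H2BD and HIST2H2BF) had means of 12.6 to 35.3.

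The H3 and H4 genes had low counts. HIST1H3H stood between 13.8 and 26.8 and HIST1H3D between 12.3 and 24.0, with no pair of libraries beyond counting error. Of the H4 genes HIST1H4H stood between 18.9 and 78.1, with both MOLM-14 libraries at 65.8 or above and the other 4 at 34.9 or below. HIST4H4, the H4 gene that lies alone on chromosome 12, was at 54.9 in the SKM-1 control and 114 in its knockdown library, 2.07-fold higher (1.496 to 2.91). It stood at 21.2 and 26.1 in MOLM-14 and at 0 in both NOMO-1 libraries. On few reads HIST1H4I and HIST1H4K were also higher in the SKM-1 knockdown library, HIST1H4I at 24.8 against 9.14 (2.71-fold, 1.24 to 6.55) and HIST1H4K at 11.0 against 2.03 (5.42-fold, 1.21 to 49.9).

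**Figure D4:**
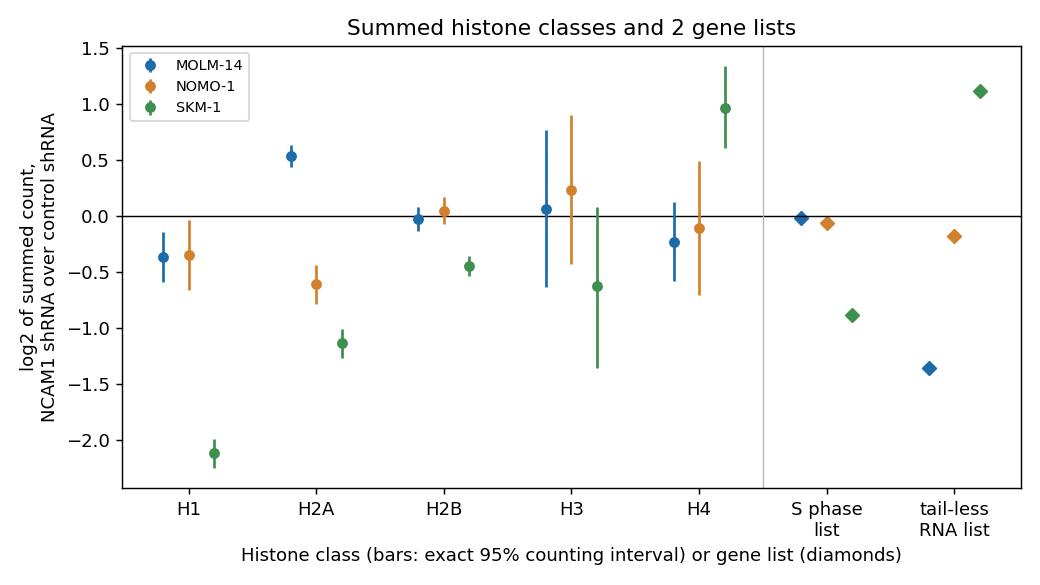
The log2 ratio of summed normalized counts, NCAM1 shRNA over control shRNA, for each histone class (circles, with exact conditional 95% intervals that cover counting error only) and for the list of DNA replication genes and the list of RNAs without a poly(A) tail (diamonds), by line. In SKM-1 H1 lies lowest, at -2.12, and H4 lies above 0, at 0.97; the list of tail-less RNAs lies below 0 in MOLM-14 and above it in SKM-1.

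Summed by class, the SKM-1 libraries differed most. In SKM-1 the H1 sum was 4.36-fold lower in the knockdown library, the H2A sum 2.21-fold lower (2.01 to 2.42) and the H2B sum 1.36-fold lower (1.28 to 1.45), while the H4 sum was 1.95-fold higher (1.52 to 2.52) and the H3 sum did not differ beyond counting error (1.55-fold lower, 0.947 to 2.56). In MOLM-14 the H2A sum was 1.45-fold higher in the knockdown library (1.35 to 1.54), which followed HIST1H2AC. In NOMO-1 it was 1.53-fold lower (1.35 to 1.73). The H2B, H3 and H4 sums of these 2 lines did not differ beyond counting error. Over the 3 lines the log2 change of the sum was -0.95 ± 1.02 for H1, -0.41 ± 0.86 for H2A, -0.14 ± 0.27 for H2B, -0.11 ± 0.46 for H3 and 0.21 ± 0.66 for H4 (SD, n = 3 in each). Each mean was smaller in size than its SD over the lines. No p-value is given for these sums, and an exact test over 3 lines could not go below 0.25. Without SKM-1 the means were -0.36, -0.04, 0.01, 0.15 and -0.17 in the same order, so the H2B, H3 and H4 means changed sign.

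Genes that serve the histones were read from lists of factors. None of the genes of the 8 pathway lists was called in limma. Of 30 genes of DNA replication and S phase 27 had a mean change below 0, with a median of -0.32. Lower in all 3 lines were 11 of the 30 and higher 2, against the 15.9% and 14.6% of all genes. The median was -0.90 in SKM-1, -0.03 in NOMO-1 and 0.04 in MOLM-14, so the lower values lie mainly in SKM-1. Their summed counts in the knockdown library were 0.540 of the control in SKM-1, 0.954 in NOMO-1 and 0.986 in MOLM-14. The histone sum was 0.494 of the control in SKM-1, 0.887 in NOMO-1 and 1.16 in MOLM-14. In SKM-1 HIST1H1C alone went from 2396 to 550, and the sum without it was not computed. The median log2 change of the histone genes there was -0.06, with 11 lower and 10 higher, so the sum does not stand for most of them. CDT1, a licensing factor, went from 5826 to 5139, from 5726 to 3663 and from 6230 to 2667 (log2 change -0.68 ± 0.52, SD, n = 3; limma adjusted p 0.779). RRM2, a subunit of ribonucleotide reductase, went from 10955 to 7375, from 6015 to 4878 and from 12633 to 10873. POLE and TK1 were lower in each knockdown library as well, with limma adjusted p-values of 0.779.

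The list for the histone locus body and histone transcription, which holds kinase and cyclin genes as well, gave a median of -0.23 over 14 genes. Of these 10 were below 0 and 3 were lower in all 3 lines. NPAT, the coactivator of the histone locus body, stood at 1700, 1526 and 1193 in the controls and at 1786, 1791 and 1497 in the knockdown libraries (log2 change 0.21 ± 0.13, SD, n = 3; limma adjusted p 0.784). CDK2, which phosphorylates NPAT, went from 1783 to 1802 in MOLM-14, from 2360 to 1897 in NOMO-1 and from 2188 to 734 in SKM-1. In the same order E2F2 went from 724 to 588, from 786 to 1014 and from 842 to 66.1. NFYA, a subunit of the CCAAT-binding factor, went from 3301 to 3158, from 2660 to 2350 and from 6153 to 1878. SP1 went from 10975.5 to 9987, from 9242 to 5572 and from 6430 to 6236. The limma adjusted p was 0.779 for CDK2, E2F2, NFYA and SP1.

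The 17 genes of stem-loop processing and translation had a median of 0.07, with 3 lower and 3 higher in all 3 lines. SLBP, the stem-loop binding protein, stood at 3970, 3586 and 6332 in the controls and at 4146, 4573 and 6422 in the knockdown libraries (log2 change 0.14 ± 0.18, SD, n = 3; limma adjusted p 0.821). LSM10, a subunit of the U7 small nuclear RNP, went from 524 to 632, from 672 to 1200 and from 966 to 2032 (0.73 ± 0.41, SD, n = 3; limma adjusted p 0.779). It was the gene of this list with the smallest p. Symplekin (SYMPK), a scaffold of the cleavage complex, and ERI1, an exonuclease that trims the stem-loop, were lower in each knockdown library, SYMPK from 6768 to 2590 in SKM-1 and ERI1 from 3031 to 1495. The 18 genes of histone messenger decay had a median of -0.04, the 21 histone chaperones one of -0.07 and the 12 replacement histones one of -0.03. Of the chaperones 7 were lower and 5 higher in all 3 lines. HJURP, which loads CENPA, went from 3011 to 2514, 3750 to 3199 and 3260 to 2251. CHAF1A, the large subunit of the replication-coupled assembly factor CAF-1, went from 3901 to 3853, 3008 to 2748 and 3594 to 1741. NAP1L4, a carrier of H2A and H2B, was higher in each knockdown library, 5317 to 5689, 7106 to 8530 and 4700.3 to 7427. The 16 genes of cell cycle arrest had a median of 0.04.

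RNAs known to lack a poly(A) tail were followed because the same libraries carry them only as a remainder. Of 26 such RNAs on the list 20 were found, and 6 of these reached the mean of 10. The summed counts of all 20 were 1180 in the MOLM-14 control and 460.4 in its knockdown library, 375 and 330.3 in NOMO-1, and 323 and 699 in SKM-1. The knockdown library thus held 0.390, 0.881 and 2.16 times the control. RN7SL1, the RNA of the signal recognition particle, went from 585 to 189 in MOLM-14 and from 139 to 267 in SKM-1. The histone genes did not move as 1 body beside it. In MOLM-14, where this list was lower in the knockdown library, 14 of the 21 histone genes were lower and 6 higher; their sum was 3719 and 4313, but 2343 and 2139 without HIST1H2AC, the control then being 1.10-fold higher (1.03 to 1.16). In SKM-1, where this list was higher, 11 histone genes were lower and 10 higher, and the sum of all was lower while the H4 sum was higher. The part of the carried-over RNA in the histone values was not tested.

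Between lines 3 to 5 of the 21 histone genes were called. These contrasts came from the same limma fit and needed an adjusted p under 0.05 and at least a 2-fold difference. Between SKM-1 and MOLM-14 15.9% of all genes were called and 3 of the 21 histone genes (14.3%). Between SKM-1 and NOMO-1 13.7% of all genes were called and 3 histone genes (14.3%), and between MOLM-14 and NOMO-1 13.3% and 5 histone genes (23.8%). The median difference over the 21 genes was -0.14, 0.67 and 0.59 in this order, against 0.02, 0.00 and -0.01 over all genes. Each line here has its 2 libraries as the only measure of spread, 1 of each shRNA.

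HIST2H2BE was higher in SKM-1 than in both other lines, by 1.62 on the log2 scale against MOLM-14 (limma standard error 0.312, adjusted p 0.033) and by 2.14 against NOMO-1 (adjusted p 0.017). The first call was lost without the filter on low values, in edgeR and without NOMO-1, and the second without MOLM-14. HIST1H1C was 2.80 higher on the log2 scale in SKM-1 than in NOMO-1 (limma adjusted p 0.034), a call lost without the filter on low values. HIST1H2BD was higher in MOLM-14 than in both others, by 2.32 against NOMO-1 (limma adjusted p 0.025), and it was -2.47 in SKM-1 against MOLM-14 (adjusted p 0.019), the second call being lost without NOMO-1. HIST1H2BD stood at 381 and 449 in MOLM-14 and between 67.5 and 100.1 elsewhere.

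Both H2A genes with calls were higher in MOLM-14 than in NOMO-1, HIST1H2AC by 2.70 on the log2 scale (limma adjusted p 0.032) and HIST1H2AG by 2.02 (adjusted p 0.039). Both calls were lost without the filter on low values, and that of HIST1H2AG also in edgeR. HIST4H4 had no read in either NOMO-1 library. Against a floor of 3 reads per library it was at least 8.49-fold higher in MOLM-14 and at least 30.3-fold higher in SKM-1 (limma adjusted p 0.011 and 0.0048). HIST1H2BH had no read in either MOLM-14 library and was at least 10.4-fold higher in SKM-1 and at least 2.43-fold higher in NOMO-1 (limma adjusted p 0.013 and 0.042). The second of these rested on 8 and 9 reads and was lost under 5 of the alternatives, and the first was lost without NOMO-1. HIST1H2BH entered the set only through SKM-1. The counts of HIST4H4 outside SKM-1 would also not have reached the mean of 10 over the 6 libraries. For both genes the rule for the set therefore partly fixes how far SKM-1 lies above. HIST3H2A had log2 differences of -2.96 for MOLM-14 against NOMO-1 and 2.86 for SKM-1 against MOLM-14, and was not called (limma adjusted p 0.098 and 0.093). Its SKM-1 libraries stood at 422 and 46.8, and in the fit without SKM-1 the first difference had an adjusted p of 0.013. Leaving out NOMO-1 brought the histone calls between SKM-1 and MOLM-14 to 0, while those over all genes fell from 3103 to 676. Leaving out SKM-1 raised the histone calls between MOLM-14 and NOMO-1 from 5 to 10, and those over all genes from 2596 to 4880.

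Many H2A and H2B genes start back to back from 1 shared stretch of DNA. Among the 66 rows 3 such pairs had both genes in the set, HIST1H2AC with HIST1H2BC at 219 bases between starts in GENCODE v29, HIST1H2AG with HIST1H2BJ at 292 and HIST2H2AC with HIST2H2BE at 323. The sequences upstream of HIST1H2AC and HIST2H2BE are shown for 2 of these pairs, that of HIST1H2BK as the H2B gene with the most reads, and that of HIST1H1C as the H1 gene. Each holds the 250 bases before the gene's start, from RefSeq (GRCh38.p14), 5′ to 3′ on the gene's strand. Capitals mark the octamer ATTTGCAT, which is bound by POU2F1, the box TATAAA and the box CCAAT, each on either strand; touching matches run together.
HIST1H2AC: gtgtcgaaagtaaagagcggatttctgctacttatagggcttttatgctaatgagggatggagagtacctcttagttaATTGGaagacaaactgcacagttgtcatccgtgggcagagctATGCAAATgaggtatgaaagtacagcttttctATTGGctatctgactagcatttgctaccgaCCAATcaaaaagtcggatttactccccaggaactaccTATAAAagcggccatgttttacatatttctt
HIST2H2BE: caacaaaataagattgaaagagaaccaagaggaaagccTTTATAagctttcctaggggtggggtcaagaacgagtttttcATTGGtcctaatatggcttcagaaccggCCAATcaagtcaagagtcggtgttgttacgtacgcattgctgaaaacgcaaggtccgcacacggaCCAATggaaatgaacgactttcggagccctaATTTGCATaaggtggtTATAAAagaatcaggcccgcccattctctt
HIST1H2BK: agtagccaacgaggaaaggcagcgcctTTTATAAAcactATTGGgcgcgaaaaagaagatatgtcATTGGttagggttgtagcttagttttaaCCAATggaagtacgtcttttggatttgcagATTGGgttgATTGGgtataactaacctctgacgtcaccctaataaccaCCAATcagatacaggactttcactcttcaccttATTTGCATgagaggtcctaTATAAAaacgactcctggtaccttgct
HIST1H1C: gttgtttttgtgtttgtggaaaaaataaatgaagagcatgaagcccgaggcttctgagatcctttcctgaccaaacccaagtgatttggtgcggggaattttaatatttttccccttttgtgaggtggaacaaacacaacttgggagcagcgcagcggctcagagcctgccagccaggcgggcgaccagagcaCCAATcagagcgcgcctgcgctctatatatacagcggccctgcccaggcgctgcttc
They lie at chr6:26123922-26124171 (plus strand), chr1:149886683-149886932, chr6:27146859-27147108 and chr6:26056471-26056720 (minus strand for the last 3). A promoter was found for 19 of the 21 genes. The octamer stood in 10 of these 19 (6 of 8 H2B, 3 of 4 H2A and 0 of 4 H4 promoters), against 1.63% of 35116 RefSeq promoters over the same 250 bases. TATAAA stood in 11 of 19, against 10.7%, and CCAAT in 16 of 19, against 32.0%. Of the 37 matched histone promoters under the mean, 13 held the octamer, 25 TATAAA and 31 CCAAT. A match of letters is a description and not a site, and the promoters of a pair share most of their bases.

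The 2 genes of a pair did not keep to 1 direction. HIST1H2AC and HIST1H2BC moved opposite ways in MOLM-14, 1376 to 2174 against 61.3 to 36.5, and were both lower in the NOMO-1 knockdown library, 390.1 to 181 and 37.8 to 16.4. In SKM-1 HIST1H2AC went from 859 to 504 and HIST1H2BC from 26.4 to 33.1, the second within counting error. HIST2H2BE was lower in each knockdown library, while HIST2H2AC was higher in the NOMO-1 one and lower in the SKM-1 one. HIST1H2AG was lower in the NOMO-1 knockdown library, and HIST1H2BJ was within counting error in each line. HIST1H2AH, the partner of HIST1H2BK, had at most 5.58 normalized counts, and HIST3H2BB, the partner of HIST3H2A, at most 8.13. In both of these pairs the other gene gave over 100 counts in at least 1 library.

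Reads of these genes carry limits of their own. Histone genes of a class are near-identical over much of their coding part, and how reads that match several copies were counted no source used here gives. In GENCODE v29 the models of HIST1H2BN overlap HIST1H2AK and HIST1H2AL, HIST2H2BC overlaps HIST2H2BD, HIST2H2BF overlaps FCGR1A and HIST1H3D overlaps AL031777.3, and the strand setting is not given either. Counts of these genes are therefore uncertain.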

How the data were processed

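The authors deposited a signal per gene, namely its read count over a size factor of the library, and a transformed log2 form of it that no source used here names. The submitters' processing notes name build hg19, DESeq2 1.12.4, HTSeq 0.6.1p1, STAR and bcl2fastq 1.8.4, without settings. Libraries were read as 100 bp pairs, per the labels and series text. Nothing says that cultures were repeated, so p-values measure the spread between these 6 libraries, which may be partly technical.

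All values were whole multiples of 1 step per column (100% at a tolerance of 0.001), which gave the reads back. Of 34114 genes, 19575 with a mean of 10 or more were tested with limma 3.58.1 (R 4.3.3; trend, two-sided) on log2(normalized count + 1), line as block, 2 residual and 2.81 prior degrees of freedom, Benjamini-Hochberg adjusted. Changes of low genes come out too small on this scale. Libraries are paired by line: libraries of 1 line deviated together from the group means, with correlations over genes of 0.850, 0.863 and 0.710. Single-line folds have exact conditional 95% intervals on the reads, and genes at 0 a floor of 3 reads per library. Alternatives were another pseudocount, filter, scaling or tool (edgeR 4.0.16, DESeq2 1.42.0), no block, the transformed values, and leaving out a line; leaving out the annotated pseudogenes, lines without reads, HIST1H2AC from the sums and a line from the HIST3H2A contrasts was added after the data were seen.

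Gene models come from GENCODE v29 (GRCh38) and promoters from RefSeq (GRCh38.p14), matched by symbol or synonym; neither is the authors' build, and no coordinates were converted. The histone genes and lists were chosen with earlier results of these data known. The text names, per class, the 4 genes with the highest mean, genes called in any comparison, genes with 1 direction in all lines, the 2 highest and 2 lowest single-line ratios, and up to 4 genes per list by p with SLBP and NPAT; HIST1H2BC, HIST1H2BJ, the pseudogenes, HIST2H2BF and partners of pairs were named after their values were seen. The marker lists other than myeloid gave summed counts of 775 to 5402 (T and NK cells), 119 to 2269 (B cells), 38.6 to 526 (erythroid and megakaryocyte) and 393 to 3578 (epithelial and stromal), with 0 genes called.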

Additional observations from a re-analysis of the deposited data

Results flagged for a closer look

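Some histone genes went opposite ways in different lines, each beyond the counting error of its 2 libraries. The difference between lines was not tested, since a line has 1 library per condition. The share of all tested genes that do the same was not computed, so this does not set the histone genes apart. On the log2(normalized count + 1) scale, knockdown over control, HIST1H2AC stood at -0.77 in SKM-1, -1.11 in NOMO-1 and 0.66 in MOLM-14. HIST2H2AC stood at 1.46 in NOMO-1 and -2.48 in SKM-1, and HIST1H2BK at 0.31 and -0.51 in these lines. HIST1H2BD stood at 0.23 in MOLM-14 and -0.56 in NOMO-1. The summed H2A class contains HIST1H2AC and is not a separate result. On the log2 scale it stood at -1.14 in SKM-1, -0.61 in NOMO-1 and 0.53 in MOLM-14.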

How the results depend on the processing

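No histone gene was called between knockdown and control under any alternative run. The count over all genes was 0 except in DESeq2, with 43, and without the replicate block it was 0 as well, with 141 genes at an unadjusted p under 0.05 against 877. The median of the 21 genes stayed below 0, at -0.22, with -0.40 when a mean of 50 or more was required (which keeps fewer genes), -0.13 on the transformed values and -0.23 to -0.10 with 1 line left out. The H3 sum turned to 0.23 without HIST1H3H, and the HIST2H2BD change to 0.016 under total-count scaling. With 1 line left out (replicate 1 is MOLM-14, 2 is NOMO-1, 3 is SKM-1) the log2 change of the sum ranged from -0.24 to 0.01 for H2B (0.0073 without SKM-1), from -0.29 to 0.15 for H3 and from -0.17 to 0.43 for H4. Single genes whose direction turned then ranged from -1.33 to 0.64 (HIST2H2AC), -0.26 to 0.15 (HIST1H2BK), -0.20 to 0.19 (HIST1H2BD), -0.47 to 0.042 (HIST1H2BN), -0.68 to 0.053 (HIST1H2BH), -0.48 to 0.052 (HIST2H2BF), -0.48 to 0.55 (HIST2H2BD), -0.14 to 0.43 (HIST1H3D), -0.080 to 0.18 (HIST1H4H) and -0.32 to 0.67 (HIST1H4I). Leaving out the annotated pseudogenes, chosen after seeing the data, kept the direction of the H2B sum and of both medians. Between SKM-1 and MOLM-14 DESeq2 called 7 histone genes against 3 (4234 genes in all against 3103), and without NOMO-1 limma called 0, with 676 genes in all. Between MOLM-14 and NOMO-1 2 histone genes were called without a filter on low values, 3 at a mean of 50 or more, 3 in edgeR and 10 without SKM-1, against 5, with 2076, 1785, 2015 and 4880 genes in all against 2596. At a mean of 50 or more HIST4H4 and HIST1H2BH, with means of 36.0 and 13.8, were not tested. The calls of HIST1H2AC, HIST1H2AG and HIST1H2BD between these lines stayed there. HIST1H2BH between these lines was lost at a pseudocount of 8, on the transformed values, without a filter, in edgeR and in DESeq2. The cause of these shifts was not tested, beyond the fewer genes or samples named. Class sums without near-identical copies were not run, and H1 has no value without its only gene. Depth limits the low genes most: a library held 9 to 27 reads of HIST1H3D, HIST1H3H or HIST1H4I.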
